A study of Mus musculus with 6 samples.

Results

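Tripartite motif (Trim) genes were taken as all rows of the deposited mouse count table whose symbol is Trim followed by a number and at most 1 letter, which gave 66 of 23282 rows. Expression was measured by RNA-seq in TC-1, which the labels give as mouse lung adenocarcinoma. The TC-1 line was derived from lung cells transformed with papillomavirus oncogenes and activated ras. Cultures were left untreated (3 libraries) or received 20 ng/ml murine recombinant interferon-gamma (IFN-gamma), a cytokine that T cells and NK cells secrete on activation, over 72 h (3 libraries), and both groups grew in RPMI with serum. TC-1 is a single line, and since separate cultures are not stated for the replicates, the p-values reflect only how far these libraries spread, which may be technical.

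TRIM proteins carry a RING domain, B-box zinc fingers and a coiled coil, and most act as E3 ubiquitin ligases whose variable C-terminal domain picks the target. Several are induced by interferons and act in antiviral defence, either by binding viral components, as primate TRIM5 binds retroviral capsids, or by modifying sensors and adaptors of innate immunity. Others regulate transcription, microtubules or muscle protein turnover and have no general link to interferon. Promoters of genes that respond to IFN-gamma can hold gamma-activated sites (GAS) and interferon-stimulated response elements (ISRE), of which the latter are bound by IRF factors.

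Of the 38 Trim genes tested, 10 were higher and 2 were lower after IFN-gamma, all by edgeR's quasi-likelihood test at an adjusted p under 0.05 over all genes. The 5 genes with the largest increases, Trim30a, Trim12c, Trim34a, Trim12a and Trim30d, all belong to the TRIM5-related cluster on chromosome 7 and rose between 9.69-fold and 18.4-fold. Trim21, Trim14, Trim26, Trim25 and Trim56, which act in innate immune signalling, rose between 2.09-fold and 6.16-fold. Trim2 and Trim59 fell, each by less than the smallest of these increases. Of all 12191 genes tested, 9.88% were higher and 7.56% were lower, and 2 lower of 38 Trim genes is near the latter share. All 10 Trim genes that rose did so by at least 2-fold, a size that 2.67% of all genes tested passed. Scaling moved the background but not the Trim calls. Upper-quartile scaling called 7.85% of all genes higher and 11% lower, unscaled totals called 8.13% higher and 10.2% lower, and the same 10 and 2 Trim genes passed with each.

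Total counts ranged from 7302687 to 10861336 per library. As checks of the treatment, the transcription factor gene Irf1 rose by 3.62 ± 0.07 on the log2 scale (± SE) and the GTPase gene Gbp2 by 6.79 ± 0.07, with an adjusted p of at most 7.46e-34 in edgeR. Lung epithelial markers were scarce, with 7 of 9 below the filter on low counts, and their sum was between 16.7 and 18.6 CPM untreated and between 8.47 and 10.2 CPM treated. Most of this sum was Krt19, which was lower, with means of 14.1 CPM untreated and 8.04 CPM treated (adjusted p = 0.00299, edgeR). Krt8, the other tested marker, did not pass. Mesenchymal markers were abundant and 5 of 5 were lower, against 7.56% of all tested genes. Their sums were between 8366 and 8668 CPM untreated and between 5773 and 6192 CPM treated. The part of these shifts in the Trim changes was not tested. The 11 myeloid markers with a row summed to between 0.748 and 1.90 CPM in untreated and between 0.837 and 1.23 CPM in IFN-gamma libraries. Aif1, C1qa and C1qb had 0 counts in all 6 libraries. The 6 lymphocyte markers summed to at most 0.279 CPM in any library. CPM values here are counts scaled by each library's total and TMM factor, and a lower level in a bulk library cannot separate fewer expressing cells from less RNA per cell.

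Promoter windows of induced genes are shown because 7 of the 9 that could be matched contain the ISRE core. The 5 printed were taken from those that hold it. The windows of Trim12a and Trim26, which hold it, and of Trim25 and Trim56, which do not, are not printed. Windows run from 250 bases before to 50 after each RefSeq start site on build GRCm38.p6, and 51 of the 66 Trim genes had one. The letters searched were GAAA and GAAA with any 2 bases between them for the ISRE core, on both strands, and TTCNNNGAA for the GAS, which reads the same on both strands. All 5 windows below lie on chromosome 7 and are written 5′ to 3′ along the gene's strand, with the ISRE core in capitals. Trim30a is at chr7:104465144-104465443 (minus strand), Trim30d at chr7:104507800-104508099 (minus), Trim12c at chr7:104353300-104353599 (minus), Trim34a at chr7:104244207-104244506 (plus) and Trim21 at chr7:102565433-102565732 (minus).
Trim30a: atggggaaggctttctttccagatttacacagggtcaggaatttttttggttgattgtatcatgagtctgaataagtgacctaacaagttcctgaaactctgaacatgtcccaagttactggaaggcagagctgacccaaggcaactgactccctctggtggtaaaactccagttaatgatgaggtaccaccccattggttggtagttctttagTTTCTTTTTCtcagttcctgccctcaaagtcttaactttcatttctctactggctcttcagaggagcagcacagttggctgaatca
Trim30d: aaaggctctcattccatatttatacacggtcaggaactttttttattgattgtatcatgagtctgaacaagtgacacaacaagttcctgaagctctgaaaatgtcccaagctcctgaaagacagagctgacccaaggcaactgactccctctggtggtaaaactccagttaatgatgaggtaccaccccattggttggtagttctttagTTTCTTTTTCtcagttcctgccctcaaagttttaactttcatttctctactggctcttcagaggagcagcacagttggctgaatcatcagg
Trim12c: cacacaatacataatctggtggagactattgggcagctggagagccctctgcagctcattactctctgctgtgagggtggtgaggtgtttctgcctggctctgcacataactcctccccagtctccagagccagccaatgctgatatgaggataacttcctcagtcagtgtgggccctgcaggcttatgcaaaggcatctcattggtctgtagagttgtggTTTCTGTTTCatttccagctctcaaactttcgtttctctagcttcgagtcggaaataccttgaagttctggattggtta
Trim34a: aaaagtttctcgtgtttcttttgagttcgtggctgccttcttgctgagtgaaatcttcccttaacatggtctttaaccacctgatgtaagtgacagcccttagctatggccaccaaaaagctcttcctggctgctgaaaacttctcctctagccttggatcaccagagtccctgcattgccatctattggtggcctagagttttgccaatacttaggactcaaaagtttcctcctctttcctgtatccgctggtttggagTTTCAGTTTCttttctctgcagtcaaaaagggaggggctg
Trim21: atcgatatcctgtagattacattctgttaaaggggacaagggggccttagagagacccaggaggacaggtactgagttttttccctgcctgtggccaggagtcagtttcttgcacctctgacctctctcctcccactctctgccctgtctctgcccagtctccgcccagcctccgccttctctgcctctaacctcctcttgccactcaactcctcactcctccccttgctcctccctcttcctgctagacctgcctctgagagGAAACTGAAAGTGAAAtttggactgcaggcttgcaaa
In Trim30a the core stood from base -36 to base -27 relative to the start site, and in Trim30d from -41 to -32, with the same letters TTTCTTTTTC. RefSeq gives Trim30a a second start site, whose window is not printed and holds these letters at 3 to 12. The Trim30a and Trim30d windows were identical at 90.8% of 305 aligned positions, so these matches are not independent of each other. Trim12c (-29 to -20) and Trim12a (11 to 20) shared TTTCTGTTTC, in windows that were identical at 72.6% of 340 aligned positions. Trim34a held TTTCAGTTTC at 11 to 20. Trim21 held overlapping cores just after its start, GAAACTGAAA at 14 to 23 and GAAAGTGAAA at 20 to 29. Trim26, on chromosome 17, held an overlapping pair farther upstream, TTTCACTTTC at -160 to -151 and TTTCCTTTTC at -154 to -145.

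The ISRE core was present in 7 of the 9 matched genes that rose, the exceptions being Trim25 and Trim56. Trim14, which also rose, had no window. The 7 include the 5 tested genes of the chromosome 7 cluster, among them related copies, so they are not 7 independent matches. The core was in 0 of the 18 matched Trim genes that were tested and did not pass, and in 0 of the 22 that were not tested. Among all matched genes tested without a call 2.85% held it, so counts of 0 in sets this small are near the general share. Of the 2 that fell, Trim2 had it in 1 of its 5 windows, at 29 to 38. Over all 27025 genes with a RefSeq promoter window, 3.99% held it, and among all matched genes higher after IFN-gamma 11.8% did. The GAS letters were in 0 of the 9 that rose, in 9.55% of all genes and in 10.3% of all matched genes higher after IFN-gamma. For only 9 genes a count of 0 is near these shares. Across the 51 matched Trim genes 5 held the GAS letters, namely Trim15, Trim31, Trim38, Trim45 and Trim46, of which Trim45 and Trim46 were tested and did not pass. A match describes these letters in this window only, and its absence says nothing of binding elsewhere.

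**Figure D1:**
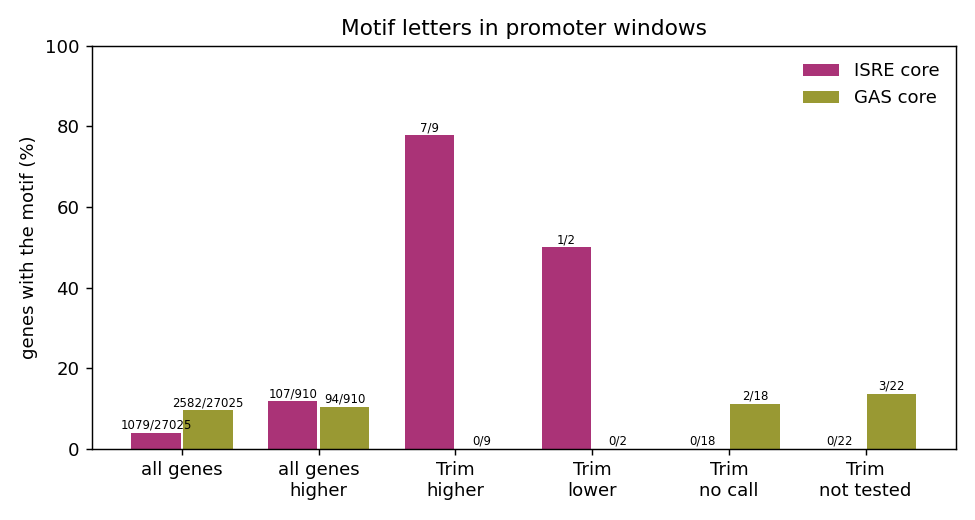
Share of genes (y axis, %) with the ISRE core or the GAS letters in any promoter window, for all genes of the promoter table, all genes higher after IFN-gamma, and Trim genes by outcome of the edgeR test; numbers over bars are genes with the motif over genes matched. The ISRE core was in 7 of 9 Trim genes that rose and in 0 of 18 that did not pass. The latter count is near the 2.85% of all matched genes tested without a call.

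The chromosome 7 cluster was the most induced group of the family. It holds mouse relatives of TRIM5, and 8 of the 10 listed genes had a row in the table. Trim5 and Trim30c were not analysed here. All 5 tested cluster genes rose by at least 8-fold, a size reached by 0.894% of all genes tested, and their median log2 change was 3.48 against -0.0082 over all genes. Every one of them had at least 14 counts in each untreated library, so none entered the test through the treated group alone. In the order of log2 changes over 12191 genes they stood between position 54 and position 93.

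Trim30a, whose protein restrains NF-kappaB signalling in mouse cells by lowering TAB2 and TAB3, had 17.4, 19.7 and 16.5 CPM in the untreated libraries and 347, 318 and 313 CPM after IFN-gamma. The groups stood far apart, and the log2 change was 4.20 ± 0.09 (adjusted p = 7.46e-34, edgeR). Its neighbour Trim30d had 16.5, 18.2 and 15.6 CPM untreated and 165, 163 and 157 CPM treated. It rose by 3.28 ± 0.09 (adjusted p = 2.04e-28, edgeR), again with no overlap between groups.

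Trim30a and Trim30d had almost equal counts before treatment and unequal counts after it. The ratio of Trim30a to Trim30d counts within a library was 1.06, 1.08 and 1.06 in untreated cells and 2.11, 1.95 and 2.0 after IFN-gamma. This ratio needs no scaling between libraries, and its groups did not overlap. The exact permutation test gave a two-sided p of 0.1, the smallest that 3 libraries against 3 allow, and the ratio was chosen after its values were seen. Of the 50-base words of the Trim30a transcripts (GENCODE M21), 5.98% also occur in Trim30d, and 6.39% of those of Trim30d occur in Trim30a. Most stretches of these transcripts therefore differ between the genes, although reads in the shared stretches could have gone to either.

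Trim12c, a mouse TRIM5 relative, had 5.13, 5.43 and 7.21 CPM untreated and 68.6, 72.6 and 71.6 CPM treated, a change of 3.57 ± 0.14 (adjusted p = 6.7e-24, edgeR). Trim12a had 3.64, 3.26 and 2.61 CPM untreated and 33.1, 33.9 and 30.4 CPM treated, a change of 3.36 ± 0.19 (adjusted p = 1.88e-18, edgeR). Both genes separated the groups fully. The ratio of Trim12c to Trim12a counts was 1.41, 1.67 and 2.76 untreated and 2.07, 2.14 and 2.35 treated, so the groups overlapped (exact permutation p = 0.5, two-sided). Of the words of Trim12c 24.2% also occur in Trim5 and 6.38% in Trim12a, so part of its reads could belong to those genes.

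Trim34a had 3.85, 1.90 and 1.57 CPM untreated and 27.6, 26.0 and 29.5 CPM treated, a change of 3.48 ± 0.22 (adjusted p = 2.64e-16, edgeR). Untreated replicate 1 was the highest of its group, and without it the change was 4.003. Its copy Trim34b, which shares 56.8% of its 50-base words with Trim34a, had 3, 1 and 0 counts untreated and 11, 2 and 5 counts treated and was not tested. Of the words of Trim34a 39.8% also occur in Trim34b, so part of the Trim34a reads could belong to that copy. Summing the counts of related copies left each group of copies higher, with log2 changes of 3.82 for Trim30a, Trim30b and Trim30d together, 3.50 for Trim12a and Trim12c, and 3.43 for Trim34a and Trim34b.

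The rest of the cluster was barely detected. Trim6 had 10, 6 and 3 counts untreated and 14, 11 and 8 counts treated, with overlapping groups. Trim30b had 2, 0 and 1 counts untreated and 6, 11 and 0 counts treated, most of the latter in replicate 2. The genes beside the cluster were nearly silent in both groups. Of the 20 genes with a row before it, mostly olfactory receptors, 20 had 0 counts in all libraries, and of the 20 after it 16 did, where Usp17la was highest with 88 counts over all 6 libraries.

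**Figure D2:**
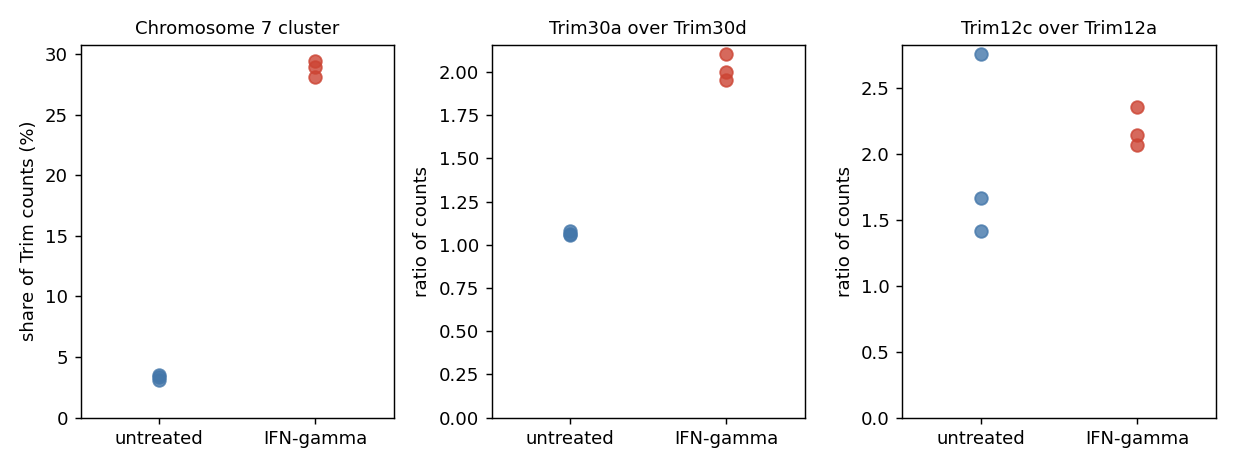
Each point is 1 library (3 untreated, 3 IFN-gamma): left, the share of all Trim counts held by the chromosome 7 cluster (%); middle, the ratio of Trim30a to Trim30d counts; right, the ratio of Trim12c to Trim12a counts. The Trim30a to Trim30d ratio was 1.06 to 1.08 in untreated libraries and 1.95 to 2.11 after IFN-gamma, while the groups overlapped for Trim12c over Trim12a.

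The cluster changed the make-up of the family's counts. It held 3.38%, 3.54% and 3.14% of all Trim counts in untreated libraries and 29.4%, 28.9% and 28.1% after IFN-gamma. All Trim genes together had between 1395 and 1422 CPM untreated and between 2135 and 2188 CPM treated. Outside the cluster the sum was between 1346 and 1374 CPM untreated and between 1519 and 1545 CPM treated. These sums are of counts and not per length, and the library kit that gave them is not known, so they do not compare levels between genes. Counts were ranked across Trim genes only to choose the 5 with the highest mean CPM to show.

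Of 14 listed Trim genes of innate immune signalling outside the cluster, 12 were tested, 5 rose and 0 fell, with a median log2 change of 0.28. Over all tested genes 9.88% were higher and 7.56% lower, and 0 of 12 is near the latter share. Trim21, a cytosolic antibody receptor that directs antibody-coated viruses to the proteasome, had 2.99, 4.34 and 4.39 CPM untreated and 26.7, 24.8 and 20.5 CPM treated. It rose by 2.62 ± 0.20 (adjusted p = 5.54e-14, edgeR). Trim14, a member without a RING domain, works as an adaptor at mitochondria downstream of RNA sensors. It had 3.10, 2.04 and 1.67 CPM untreated and 12.7, 12.5 and 16.8 CPM treated. It rose by 2.61 ± 0.26 (adjusted p = 2e-10, edgeR), and its groups, like those of Trim21, stood clearly apart.

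Trim26, Trim25 and Trim56 were expressed before treatment and roughly doubled. Trim25, the ligase known for modifying the RNA sensor RIG-I, had 89.4, 81.1 and 81.7 CPM untreated and 179, 169 and 179 CPM treated. Its log2 change was 1.06 ± 0.07 (adjusted p = 2.11e-15, edgeR). Trim56, a ligase linked to restriction of RNA viruses in human cells, had 71.5, 66.9 and 58.6 CPM untreated and 136, 154 and 121 CPM treated, a change of 1.06 ± 0.09 (adjusted p = 1.53e-12, edgeR). Trim26, a ligase gene of the MHC region, had 26.2, 19.9 and 25.1 CPM untreated and 56.7, 49.8 and 51.6 CPM treated, a change of 1.14 ± 0.12 (adjusted p = 3.45e-10, edgeR). None of these 3 genes had overlapping groups.

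**Figure D3:**
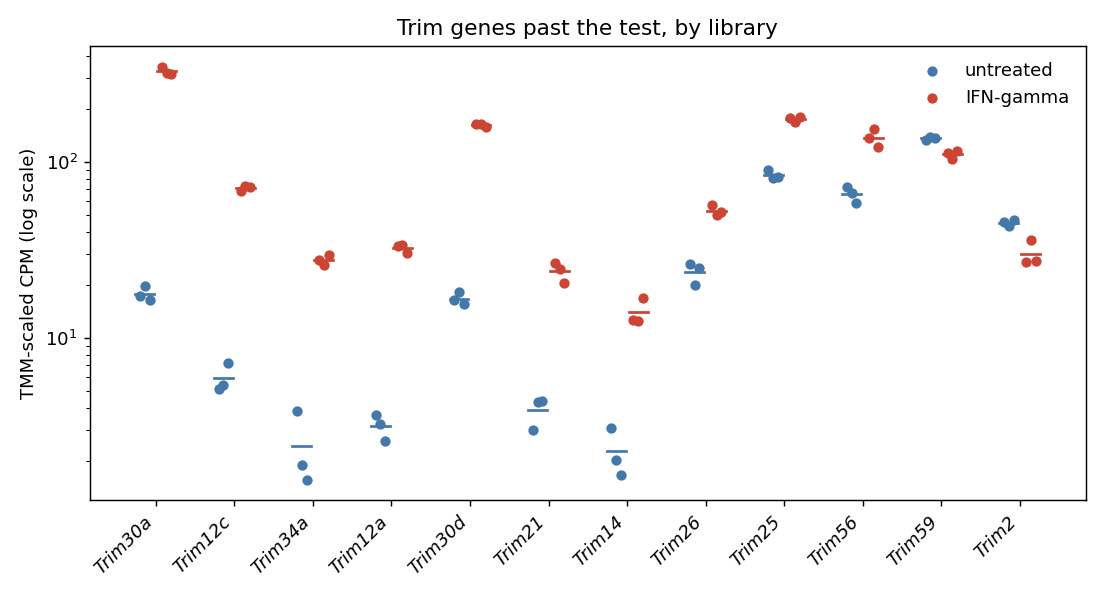
TMM-scaled CPM (log axis) of the 12 Trim genes past the test in each of the 6 libraries, with horizontal lines at group means. The IFN-gamma points lie above all untreated points for the 10 genes from Trim30a to Trim56 and below them for Trim59 and Trim2.

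The other 7 tested members of this list did not pass. Trim8, which binds SOCS1, an inhibitor of IFN-gamma signalling, had 79.4, 73.0 and 84.9 CPM untreated and 89.2, 63.3 and 79.0 CPM treated, with a log2 change of -0.036 ± 0.099. Trim27 had 0.082 ± 0.109 and Trim32 -0.082 ± 0.106, each with overlapping groups. Trim13, a ligase of the endoplasmic reticulum membrane, had 0.48 ± 0.27 (adjusted p = 0.247, edgeR). Trim23, Trim65 and Trim68 had changes between -0.36 and -0.21 with standard errors of 0.30 to 0.48, so changes of that size could not be resolved. Trim38 and Trim31, also of this list, had 0 counts in all 6 libraries. At this depth, 3 counts over the group correspond to 0.114 CPM untreated and 0.107 CPM treated, which is the limit that 0 counts allow for counting error alone.

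The MHC region, whose class I genes respond to IFN-gamma, held 6 listed Trim genes with unlike outcomes. Trim26 rose, as above. Trim39, the other tested member, had 8.02, 11.1 and 11.9 CPM untreated and 10.9, 13.6 and 10.1 CPM treated, a change of 0.16 ± 0.20 (adjusted p = 0.67, edgeR). Trim10, Trim31 and Trim40 had 0 counts in every library, and Trim15 had 10 counts over the untreated libraries and 12 over those with IFN-gamma.

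The TIF1 genes, transcriptional co-regulators that read chromatin, gave no call among 4 tested, where 17.4% of all tested genes were called in either direction. With 4 genes, the lack of a call cannot be set apart from that share. Trim28, the corepressor recruited by KRAB zinc finger proteins to silence retroelements, had 295, 283 and 293 CPM untreated and 286, 280 and 319 CPM treated. Its log2 change was 0.02 ± 0.06, and it was slightly negative under upper-quartile scaling and under unscaled totals. Trim24 had -0.071 ± 0.115 and Trim33, a regulator of SMAD signalling, had -0.13 ± 0.10. Trim66 had 7.59, 6.92 and 9.92 CPM untreated and 5.21, 5.02 and 6.28 CPM treated. These groups did not overlap, yet the change of -0.58 ± 0.25 did not pass over all genes (adjusted p = 0.112, edgeR).

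Among the NHL domain genes, 1 of 3 tested was lower and 0 were higher, where 7.56% of all tested genes were lower and 9.88% higher. With 3 genes, these counts cannot be set apart from those shares. Trim2, a ligase known for acting on the neurofilament light chain in neurons, had 45.8, 43.0 and 46.7 CPM untreated and 27.1, 36.01 and 27.4 CPM treated. It fell by 0.59 ± 0.12 on the log2 scale (adjusted p = 0.000288, edgeR), and every treated library was below every untreated one. Trim3, its closest relative, had -0.45 ± 0.23 (adjusted p = 0.187, edgeR) with overlapping groups. Trim71, the mouse LIN-41, had 2 counts in all.

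Of 25 Trim genes in no role list, 12 were tested, 1 was lower and 0 were higher, and 1 of 12 is near the 7.56% of all tested genes called lower. Trim59, a membrane-anchored member, had 133, 139 and 136 CPM untreated and 112, 104 and 116 CPM treated. It fell by 0.30 ± 0.07 (adjusted p = 0.00257, edgeR), a small change with no overlap between the groups. Among members with high counts and no call, Trim35 had 116, 117 and 121 CPM untreated and 128, 117 and 122 CPM treated, with a log2 change of 0.050 ± 0.073. The log2 change of Trim44, which lacks the RING domain, was 0.029 ± 0.082, and that of Trim37, a ligase with a MATH domain, was -0.11 ± 0.09.

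Genes of muscle and microtubule-associated members were mostly off. Of the 7 listed COS box genes, whose proteins bind microtubules, Trim46 and Trim54 were tested and neither passed, with -0.22 ± 0.27 and 0.088 ± 0.412. Trim9 and Trim55 had 0 counts. Trim63, the muscle atrophy ligase MuRF1, had 1 count in all, and Trim72, a muscle membrane repair protein, had 0 counts untreated and 0, 4 and 6 treated.

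**Figure D4:**
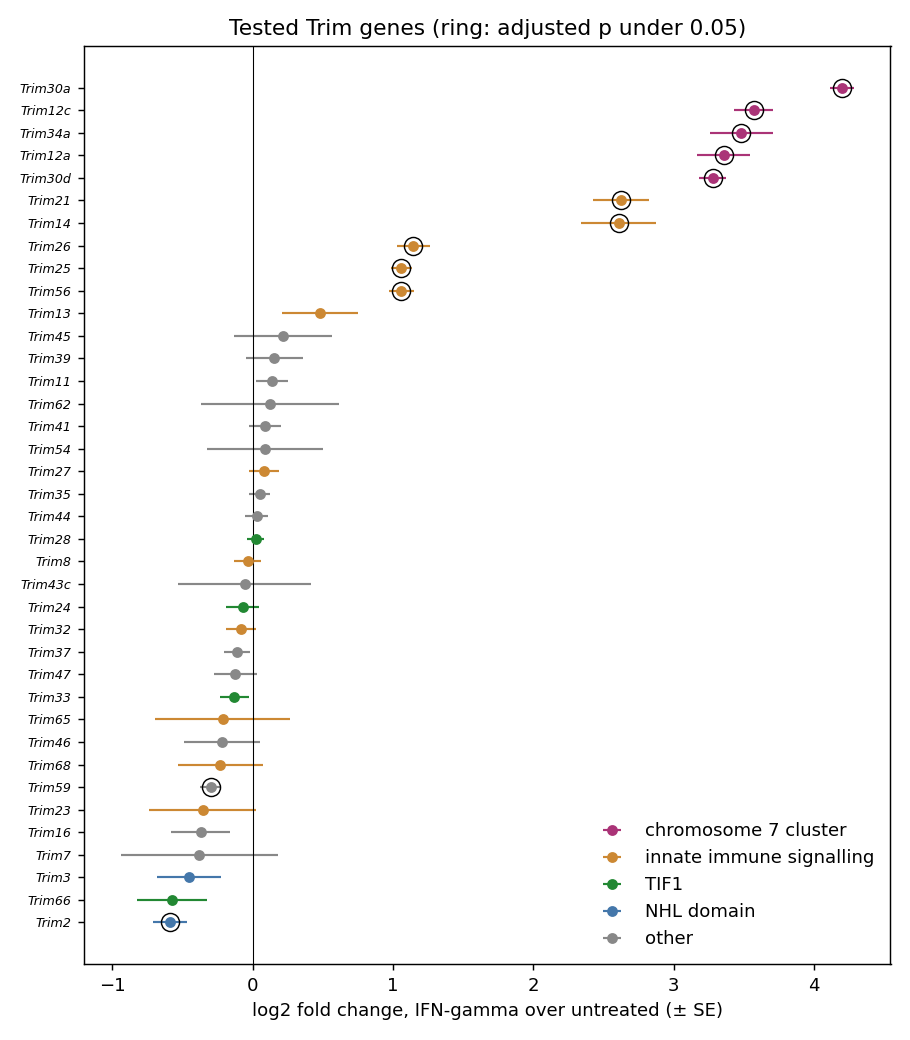
Log2 fold change of IFN-gamma over untreated (x axis, ± SE) for the 38 tested Trim genes, ordered by size and coloured by role; rings mark an adjusted p under 0.05 in edgeR. The 5 cluster genes lie between 3.28 and 4.20, the 5 signalling genes that rose between 1.06 and 2.62, and the 26 genes without a call between -0.58 and 0.48.

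Of the 66 genes, 38 passed the filter on low counts, 26 of these were not called, 13 had 0 counts in all libraries and 15 had between 1 and 52 counts in all. Of the 26 without a call, 20 had a log2 change smaller than 0.25 in size. Groups did not overlap in 10 tested Trim genes on the higher side, against 16.2% of all tested genes, and in 4 on the lower side, against 15.6%. The 10 are those that rose, and the 4 are Trim2, Trim59, Trim66 and Trim46. The median log2 change of the tested Trim genes was 0.040, and -0.011 with upper-quartile factors.

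Genes that work with or resemble TRIM proteins were counted in 4 lists, chosen with earlier results known and not tested against each other. The shares over all tested genes are again 9.88% higher and 7.56% lower. Of 19 tested partners in RNA and DNA sensing, 12 were higher and 0 lower, with a median log2 change of 0.44. The ubiquitin-like modifier gene Isg15 rose by 3.43 ± 0.07, the transcription factor gene Irf7 by 3.91 ± 0.12, and the RNA sensor genes Ddx58, which encodes RIG-I, by 2.002 ± 0.079 and Ifih1 by 1.88 ± 0.11. The adjusted p of these 4 was at most 1.48e-17 in edgeR. The adaptor gene Mavs (-0.040 ± 0.117) and Irf3 (-0.067 ± 0.149), which act downstream of the sensors, did not pass.

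Of 14 E2 enzymes and related factors used by TRIM ligases, 4 were higher and 0 lower, with a median of 0.077. Ube2l6, the E2 that loads ISG15, rose by 2.68 ± 0.10 (adjusted p = 4.75e-24, edgeR). Ube2d3, Ube2e1 and Vcp, an ATPase that extracts ubiquitinated proteins, were higher by 0.25 ± 0.06, 0.33 ± 0.09 and 0.20 ± 0.06. The call of Ube2e1 was lost without untreated replicate 3 (adjusted p = 0.055), and that of Vcp without untreated replicate 1 (adjusted p = 0.0955) and under upper-quartile scaling or unscaled totals (adjusted p = 0.0608 with each), all in edgeR. The 12 genes listed for TRIM28 silencing are not all subunits of its complex. Of these 12, 1 was higher and 0 lower, with a median of -0.015, a count near the 9.88% of all tested genes called higher. The gene was Daxx, a histone chaperone gene, which rose by 1.76 ± 0.08 (adjusted p = 4.79e-22, edgeR).

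Of the TRIM relatives with other names, 4 were tested, 1 was higher and 1 lower. Pml (TRIM19), the organiser of nuclear bodies, rose by 0.91 ± 0.08 from 102 ± 14.2 to 192 ± 3.01 CPM (SD, n = 3; adjusted p = 2.33e-12, edgeR). Mid2, a COS box ligase, was lower by -0.61 ± 0.22 (adjusted p = 0.0482, edgeR). This call was lost without untreated replicate 1, 2 or 3, without IFN-gamma replicate 2 and with DESeq2 (adjusted p from 0.0663 to 0.273).

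**Figure D5:**
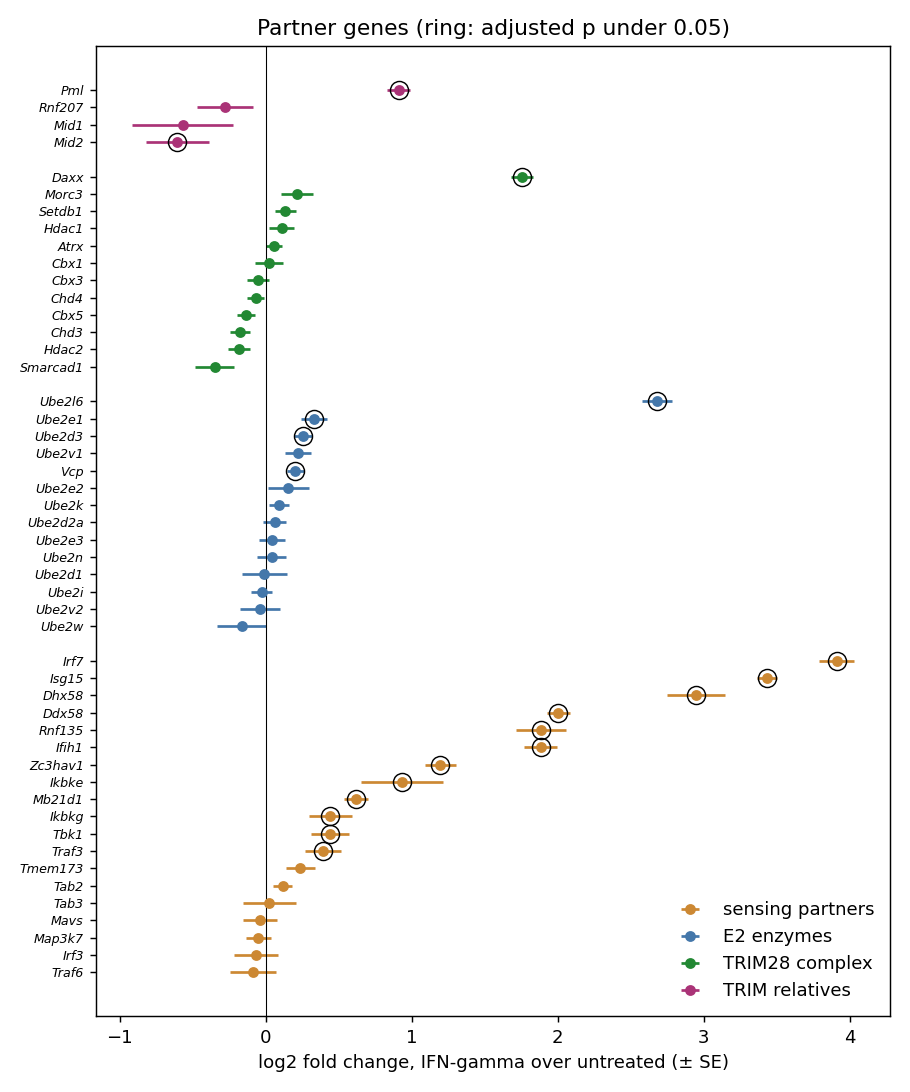
Log2 fold change (x axis, ± SE) of tested genes that work with or resemble TRIM proteins, in 4 lists; rings mark an adjusted p under 0.05 in edgeR. Of the sensing partners 12 of 19 were higher, while in the list labelled TRIM28 complex only Daxx passed, at 1.76.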

How the data were processed

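The deposited table held raw counts per gene, whole numbers with no normalization, and log2 normalized values made by the authors, per the file headers. The submitters' processing notes name Bowtie2, edgeR and hg19, a human build, for these mouse samples. The counter and annotation are not given in the sources used here, and neither is which of the 2 library kits named in the labels was used. All 66 Trim symbols matched the RefSeq table of GRCm38.p6. Sequences, and all coordinates, are RefSeq's, and no coordinates come from the deposited table.

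Samples were grouped by title. Counts were tested over the whole table by a quasi-likelihood fit in edgeR 4.0.16 (R 4.3.3), robust and with no covariate, using TMM factors and the filterByExpr filter, with Benjamini-Hochberg adjustment and a threshold of 0.05, after a test on simulated data. This left 12191 genes. Each standard error is the log2 change divided by the square root of F. Alternatives were other scaling factors, filters, DESeq2 1.42.0, limma 3.58.1 on the authors' log2 values, leaving out each library, a replicate block and summed copies. No replicates of a group matched within sampling noise (chi-square per degree of freedom of at least 4.54). Intervals and limits cover counting error only.

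The members and lists were chosen with earlier results of these data known. Named in full were Trim genes past the threshold with a log2 change of at least 0.5 in size, and with values the other called members, the 5 with the highest mean CPM and the best of each list. Of each partner list, up to 4 with the smallest adjusted p were named. All other Trim genes given with values, Mavs, Irf3, Krt19, Krt8, Gm15133, Usp17la and the ratios of copies were chosen after their values were seen. No protein sequences were used here. A further gene planned as a check of the treatment is not reported here.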

Additional observations from a re-analysis of the deposited data

How the results depend on the processing

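The same 10 Trim genes were higher and the same 2 lower in each of the 14 alternatives that gave counts: 3 other scalings, 2 other filters, DESeq2, limma on the deposited log2 values, 6 fits without 1 library each, and the fit with the replicate number as a block (10 higher and 2 lower). In these alternatives between 7.52% and 10.5% of all genes were higher and between 5.28% and 11% lower. Over the 17 Trim genes followed through all alternatives, 237 of 243 values kept their direction and side of the threshold. The other 6 are sign changes of genes that pass under no setting. Trim28 was -0.019 with total counts alone, -0.028 with upper-quartile factors and -0.034 without IFN-gamma replicate 3, within a range of -0.034 to 0.061 over the fits without 1 library. Trim35 was -0.00083 with upper-quartile factors. Trim54 was -0.27 without IFN-gamma replicate 3 and -0.090 without untreated replicate 3, within a range of -0.27 to 0.31. The cause was not tested.

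Samples with the same replicate number did not deviate together (correlations of 0.00283, 0.0411 and -0.00139 for numbers 1, 2 and 3), so the numbers were not taken as pairs. Depth limits the 15 Trim genes with at most 52 counts, which were not tested. Word sharing was computed for 50 bases and a read length is not given in the sources used here, so the mixing of reads between Trim34a and Trim34b, or Trim12c and Trim5, was not tested.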

Other observations

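A few Trim genes below the filter had low counts. Trim36, a COS box ligase gene, had 1, 11 and 6 counts in untreated replicates 1, 2 and 3 and 1, 1 and 0 after IFN-gamma, so the groups overlapped. Trim69 had 7, 3 and 1 counts untreated and 10, 13 and 6 treated, also with overlap. Trim29 had 7 counts, all in untreated replicate 1, and Trim17 had 4 counts, all in IFN-gamma replicate 3. These genes were chosen after their values were seen, and none was tested.

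The long non-coding RNA gene Gm15133, which overlaps Trim12a by 528 bases in the RefSeq annotation, had 0, 0 and 1 counts untreated and 4, 6 and 4 counts treated. Whether the counting used strand is not given in the sources used here. The sharing of reads between Gm15133 and Trim12a was not tested.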
